A study of Rattus norvegicus with 19 samples.

Results

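Of the 386 rows of the tRNA table, 68 carried the name of a lysine, valine, histidine or aspartate tRNA, in plasma small RNA libraries of rats. These were 25 Lys, 16 Val, 12 His and 15 Asp rows, chosen by the isotype in the row name alone, with no use of their counts. Another 17 rows of the table bore an identifier with no isotype and belonged to none of the 4 amino acids. Plasma came from the tail vein of adult male Sprague-Dawley rats at 2 days, with 1 library per rat. The 4 naive rats had isoflurane but no operation, and the 5 sham-operated controls had a craniectomy over the left hemisphere without an impact. The 5 rats with mild traumatic brain injury (mTBI) and the 5 rats with severe injury (sTBI) had the same craniectomy followed by a lateral fluid-percussion impact of lower or higher pressure. Sham, mTBI and sTBI rats thus shared the operation, with its maintained isoflurane, lidocaine, saline and buprenorphine. Each comparison with naive rats includes all of these. Injured rats also had further saline on the day after injury, and sTBI rats soft food. Comparisons with sham rats include these. The questions were whether the plasma level of these tRNA sequences differed with the operation, with injury, or with its severity.

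A tRNA carries one amino acid to the ribosome and reads its codons through the anticodon, 3 bases in a loop of the folded molecule. In stressed cells, nucleases such as angiogenin cut tRNAs in or near that loop, and the resulting fragments are abundant in blood plasma, in protein complexes and vesicles. Base modifications affect both cutting and copying into cDNA: in mammals the anticodons of tRNA-His and tRNA-Asp carry queuosine, the wobble base of the Lys-TTT anticodon is a thiolated uridine, and the methyltransferase Dnmt2 modifies tRNA-Asp and Val-AAC. The libraries were made from small RNA, so a count stands for a tRNA-derived read and not for a whole tRNA, and the table does not say which piece of the tRNA a read covered.

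The 68 rows fell into 7 anticodons, all 7 of which passed the low-count filter as sums. Each row name gives a chromosome and a running number, without a start or end, and the authors' build was Rnor_6.0. The 15 Asp-GTC rows lay on chromosomes 7, 10, 12, 13 and X or on unplaced sequence of chromosome 13, and the 12 His-GTG rows on chromosomes 2, 3, 5 and 19. The RefSeq annotation of the newer assembly GRCr8 lists 26 genes for Asp-GTC, 10 for His-GTG, 16 for Lys-CTT, 9 for Lys-TTT, 43 for Val-AAC, 9 for Val-CAC and 6 for Val-TAC. The table held 15, 12, 16, 9, 7, 5 and 4 rows for these. Copies of one tRNA can be identical in sequence, and how a read that matched several copies was placed is not given in the sources used here. Values of single rows are therefore uncertain, and sums over an anticodon are given first.

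Each library had 1386885 to 6252441 tRNA UMIs, a UMI being a random tag that lets PCR copies of 1 molecule be counted once. tRNA made 8.51 to 43.0% of all reads of a library. Rows for tRNA-Gly and tRNA-Glu took 93.8 to 97.2% of the tRNA UMIs, and the 68 rows of the 4 amino acids 1.47 to 3.47%. In 7 libraries no tRNA row had a count from 1 to 9, so a 0 there can stand for up to 9 UMIs, while the other 12 libraries had 15 to 35 such rows. Of the 68 rows, 61 were above 0 in every library, 7 were at 0 in at least 1, and 64 passed the filter among 332 tested. The libraries naive 1, naive 3, mTBI 2 and mTBI 5 stood apart, with over 10 miRNA UMIs per spike-in UMI. Some results that rest on these 4 are also given without them.

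His-GTG and Asp-GTC were the most counted of the 7 anticodons, and Val-TAC the least. The mean count was 36460 UMIs per library for His-GTG (44.2% of the UMIs of the 68 rows) and 31352 for Asp-GTC (38.0%). Lys-TTT followed with 6664 and Val-CAC with 3427. Lys-CTT had 2856, Val-AAC 1425 and Val-TAC 326 UMIs. In every anticodon 1 row held a large part of the sum. Chr7.trna8813-AspGTC had a mean of 22258 UMIs and 71.0% of the Asp-GTC sum, and Chr2.trna4128-HisGTG had 20624 UMIs and 56.6% of the His-GTG sum. Chr17.trna1683-LysTTT held 52.8%, Chr17.trna1600-ValCAC 53.6%, Chr2.trna9183-ValAAC 62.5% and Chr1.trna6859-ValTAC 58.8% of their sums. Lys-CTT was spread more evenly, and its most counted row, Chr6.trna6097-LysCTT, held 23.7%. The number of rows did not set the level: Lys-CTT had 16 rows and His-GTG 12.

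**Figure D1:**
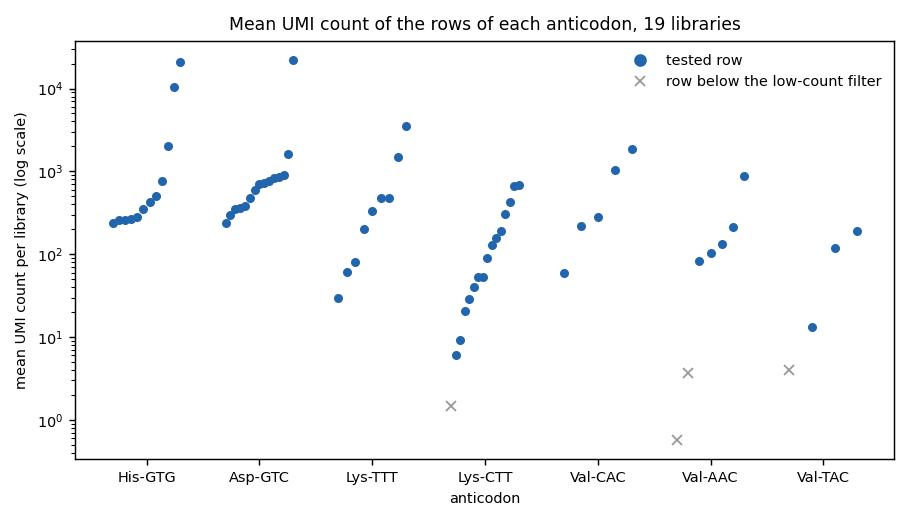
Mean UMI count per library (log scale) of each of the 68 rows, grouped by anticodon, over 19 libraries. Circles are rows that passed the low-count filter and crosses the 4 that did not. The top rows of His-GTG and Asp-GTC, at 20624 and 22258 UMIs, stand above all rows of the other anticodons.

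Anticodons of one amino acid varied very differently from rat to rat on the scale used here. Levels are given here as TMM-scaled CPM, that is tRNA UMI counts brought to the same total in every library and then multiplied by a factor that sets the bulk of the tRNA features level. Over all 19 libraries the coefficient of variation was 13.6% for Lys-CTT and 77.4% for Lys-TTT. It was 17.8% for Val-CAC, 25.6% for Val-AAC and 30.9% for Val-TAC. Asp-GTC had 38.2% and His-GTG 55.0%, against a median of 37.3% over the 65 sums tested. The highest library exceeded the lowest by 11.0-fold for Lys-TTT and by 1.69-fold for Val-CAC.

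None of the 64 tested rows and none of the 7 sums passed edgeR's quasi-likelihood test in any of the 6 comparisons at an adjusted p of 0.05. In sham against naive rats 0 rows were called, as were 0% of all 332 features, although the unadjusted p was under 0.05 for 10 rows (39 of all 332 features). DESeq2 called 3 rows, against 0.904% of all features. The groups did not overlap for 5 of the 64 rows, against 4.82% of all features. In mTBI against naive rats 0 rows were called against 0.301% of all features, where the unadjusted p was under 0.05 for 19 rows (51 of all 332). DESeq2 called 10 rows, against 5.72% of all features. No row had groups that did not overlap, against 1.2% of all features. In sTBI against naive rats 0 were called against 0% of all, and 21 rows had an unadjusted p under 0.05 (64 of all 332). DESeq2 called 8 rows, against 5.42% of all features. Groups did not overlap for 3 rows against 6.02%.

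Between operated groups fewer rows had a low p. In mTBI against sham rats edgeR and DESeq2 each called 0 rows and 0% of all features, 9 rows had an unadjusted p under 0.05 (28 of all 332), and 4 had groups that did not overlap, against 2.71%. In sTBI against sham rats both tools called 0 rows and 0% of all, with 0 rows at an unadjusted p under 0.05 (1 of all 332) and 1 without overlap, against 0.301%. In sTBI against mTBI rats both tools called 0 rows and 0% of all, with 1 row at an unadjusted p under 0.05 (15 of all 332) and 0 without overlap, against 1.2%. Of the 7 sums, edgeR called 0 in each comparison, as of all 65, and 1, 2, 2, 2, 0 and 0 had an unadjusted p under 0.05 in the order above. DESeq2 called 0, 1, 1, 0, 0 and 0 of the 7 sums, against 0%, 1.54%, 3.08%, 0%, 0% and 0% of all 65. Val-TAC in sham against naive rats was the only sum of the 7 whose groups did not overlap in any comparison, against 1.54% of the 65 sums there and in mTBI against naive and sTBI against mTBI, 3.08% in sTBI against naive, and 0% elsewhere.

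**Figure D2:**
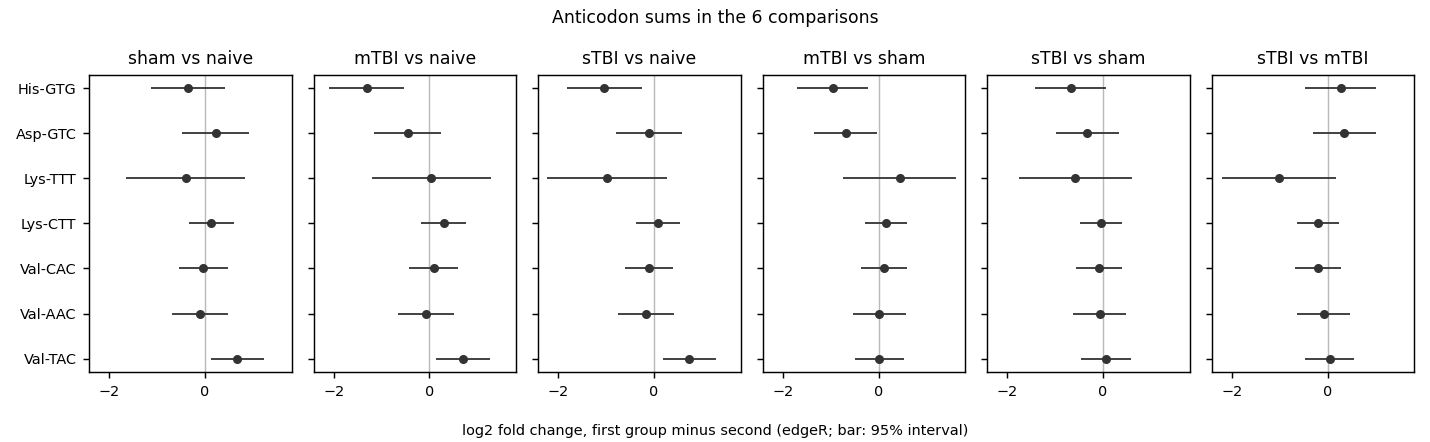
Log2 fold change (first group minus second) of each anticodon sum in the 6 comparisons, from edgeR, with its 95% interval. The intervals of His-GTG lie below 0 in mTBI against naive, sTBI against naive and mTBI against sham, those of Val-TAC above 0 in all 3 comparisons with naive rats, and that of Asp-GTC just below 0 in mTBI against sham; none of these passed the adjusted threshold.

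tRNA-His had its lowest means in both injured groups, lower than in naive and in sham rats under each of the 11 alternatives. It did not pass the main edgeR test, though it passed against naive rats under some alternatives given below. On the TMM scale its highest values were in 2 naive rats. His-GTG reads the histidine codons, and tRNA-His is the tRNA to which an extra guanosine is added at the 5′ end after transcription. Its sum was at 7814, 24455, 9329.7 and 28303 CPM in naive rats 1 to 4. It was at 14282, 15399.9, 9087, 13969.9 and 15475 CPM in sham rats 1 to 5. After mTBI the values were 4308, 7495, 9129, 6825 and 7391 CPM, and after sTBI 4168, 10719.5, 8032, 10211 and 9439 CPM. On this scale naive 2 and naive 4 stood far above all other rats, naive 1 and naive 3 lay within the range of the injured rats, and sham 3 was just below the highest mTBI rat, so the naive and the sham group each overlapped the mTBI group. As a share of all tRNA UMIs, sham 2 (1.68%) exceeded naive 2 (1.63%) and naive 4 (1.58%), so the order of rats depended on the scaling. The mean on the TMM scale was 17475 ± 10419 CPM (SD, n = 4) in naive, 13643 ± 2632 (SD, n = 5) in sham, 7029 ± 1747 (SD, n = 5) in mTBI and 8514 ± 2632 (SD, n = 5) in sTBI rats. Plasma is a bulk sample, and release from fewer cells and less RNA per cell cannot be told apart.

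The log2 fold change of the His-GTG sum was -1.31 (SE 0.37, edgeR adjusted p = 0.110) in mTBI against naive rats, the smallest adjusted p of the 65 sums there. It was -1.04 (SE 0.37, edgeR adjusted p = 0.159) in sTBI against naive and -0.36 (SE 0.37, edgeR adjusted p = 0.851) in sham against naive rats. Against sham rats it was -0.96 (SE 0.35, edgeR adjusted p = 0.726) in mTBI and -0.68 (SE 0.35, edgeR adjusted p = 0.986) in sTBI. In sTBI against mTBI rats it was 0.28, with a 95% interval from -0.46 to 1.02. The mTBI against naive value passed the threshold in DESeq2 (-1.40, adjusted p = 0.0174) and with total miRNA UMIs as the library size (edgeR adjusted p = 0.0433). It also passed when naive 1 (edgeR adjusted p = 0.0453) or naive 3 (edgeR adjusted p = 0.0407) was left out. Without the 4 libraries that stood apart, 3 mTBI rats and, of the naive rats, only the 2 with the highest His-GTG values (naive 2 and naive 4) remained, so the size of the difference rests on which naive rats were left. There edgeR gave -1.72 (adjusted p = 0.0172) for mTBI and -1.32 (adjusted p = 0.0410) for sTBI against naive rats, where 3.08% and 4.62% of all sums were called. Without naive 4, the highest library on the TMM scale, the mTBI value was -0.98 (edgeR adjusted p = 0.309).

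The 12 His-GTG rows varied together. Over the 19 libraries Spearman's rho between pairs of rows ran from 0.711 to 0.977 with a median of 0.888 (66 pairs), where rows can share reads and depth. In mTBI against naive rats all 12 had a negative log2 fold change, with a median of -1.12 against 0.12 over all 332 features, and all 12 had an unadjusted p under 0.05. In sTBI against naive rats all 12 were negative with a median of -0.89 against -0.09, and 9 had such a p. In sham against naive rats all 12 were negative with a median of -0.47 against -0.14, and 1 had such a p. These 12 negative signs held with TMM, RLE, miRNA and spike-in scaling, but with total tRNA UMIs as the library size 9, 5 and 1 of the 12 were negative in mTBI, sTBI and sham. That scaling moved the median of all features to 1.03, 0.64 and 0.42, and the median of the His-GTG rows lay 1.16, 0.63 and 0.17 below it, compared with 1.24, 0.80 and 0.33 below with TMM. With TMM all 20 tested Glu rows were also negative, with medians of -0.68, -0.79 and -0.69 in mTBI, sTBI and sham. Of 29 Gly rows 23, 22 and 24 were negative in that order, with medians of -0.56, -0.50 and -0.53. Ile rows went the other way, with medians of 0.52, 0.25 and 0.26.

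Chr2.trna4128-HisGTG had the smallest p of any of the 64 rows in mTBI against naive, sTBI against naive and sTBI against sham rats. Its naive values were 4391, 15451, 6866 and 20985 CPM, and its sham values 6453, 9562, 4785, 8301 and 7391 CPM. After mTBI it stood at 1906, 2700.1, 5851, 4321 and 3572 CPM, and after sTBI at 1447, 6202, 4351, 3789 and 5932 CPM. Only naive 1, at 4391 CPM, lay inside the range of the mTBI and sTBI rats. The log2 fold change was -1.70 (SE 0.44, edgeR adjusted p = 0.0793) for mTBI and -1.46 (SE 0.43, edgeR adjusted p = 0.167) for sTBI against naive rats, and -0.75 (SE 0.41, edgeR adjusted p = 0.996) for sTBI against sham rats. Without the 4 libraries that stood apart, edgeR gave -2.18 (adjusted p = 0.00740) and -2.05 (adjusted p = 0.00936) against naive rats, again against naive 2 and naive 4 alone.

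Less counted copies of tRNA-His gave similar values. Chr3.trna8580-HisGTG was at 77.4, 213, 113 and 282 CPM in naive and at 42.3, 67.1, 88.5, 78.3 and 63.5 CPM in mTBI rats, a log2 fold change of -1.33 (SE 0.36, edgeR adjusted p = 0.0955). Chr5.trna10653-HisGTG was at 52.1, 158, 72.6 and 203 CPM in naive and at 33.6, 35.0, 66.6, 59.4 and 58.6 CPM in mTBI rats, with -1.26 (SE 0.36, edgeR adjusted p = 0.120). In both rows naive 2 and naive 4 were high, and naive 1 fell among the mTBI rats. Chr3.trna3342-HisGTG had -0.99 (SE 0.31, edgeR adjusted p = 0.175) and Chr2.trna7268-HisGTG -1.10 (SE 0.36, edgeR adjusted p = 0.175) in sTBI against naive rats. The number of His-GTG rows called lower in mTBI against naive rats was 0 in edgeR and 10 in DESeq2. It was 7 with miRNA totals (2.71% of all features called), 3 with a hemolysis covariate (1.51%), 8 without naive 1 (3.58%), 5 without naive 3 (2.08%) and 12 without the 4 libraries that stood apart (11.6%). In sTBI against naive rats it was 0 in edgeR, 3 in DESeq2 and 11 without those 4 libraries (5.78%).

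**Figure D3:**
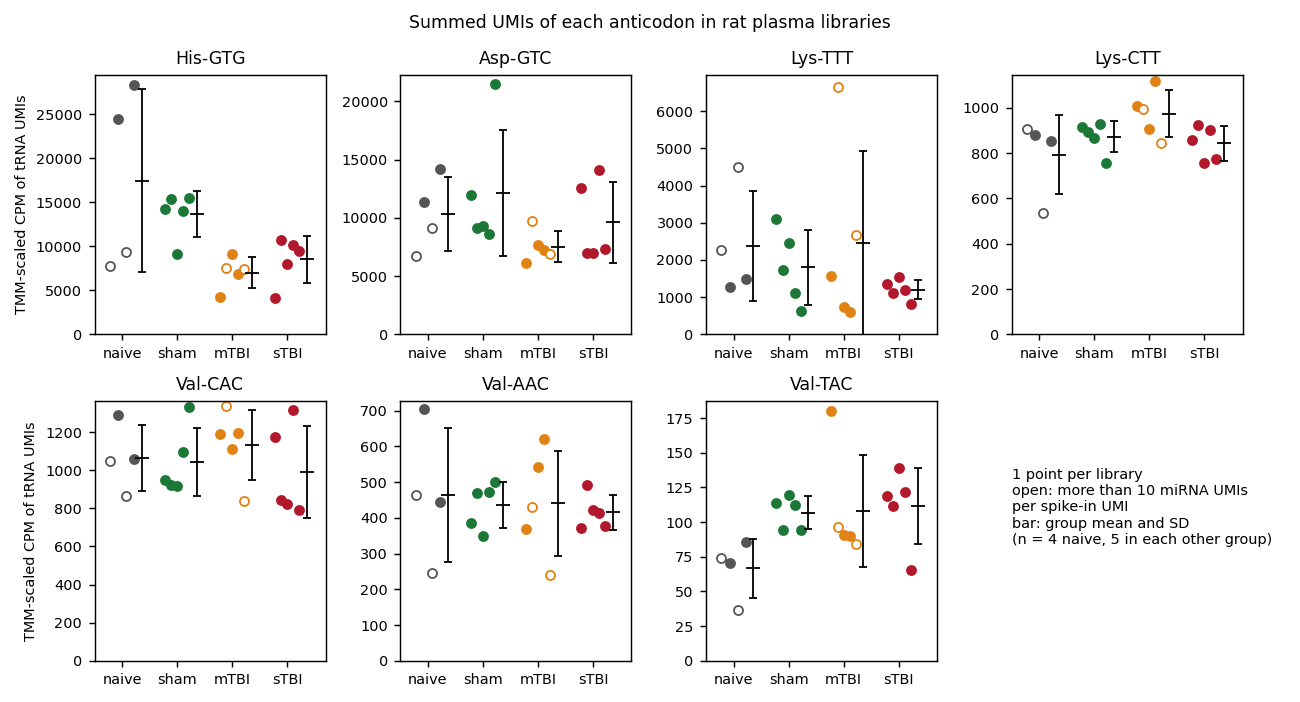
TMM-scaled CPM of each anticodon sum in every library, by group, with the group mean and SD (4 naive rats, 5 in each other group). Open circles are the 4 libraries with over 10 miRNA UMIs per spike-in UMI. For His-GTG, naive 2 and naive 4 sit at 24455 and 28303 and the mTBI rats between 4308 and 9129; for Val-TAC, the sham rats sit above 94.0 and the naive rats at or below 85.9.

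tRNA-Asp showed different pictures in its most counted row and in the rest. The Asp-GTC sum was at 6692, 11355, 9166 and 14146 CPM in naive and at 12000.0, 9128, 9303, 8639 and 21517 CPM in sham rats. It was at 6105, 9715, 7648, 7255 and 6928 CPM after mTBI and at 12577, 6985, 7013, 14124 and 7367 CPM after sTBI. Sham 5 was the highest library, and the groups overlapped in all 6 comparisons. The sum had its smallest p in mTBI against sham rats, with a log2 fold change of -0.69 (SE 0.31, edgeR adjusted p = 0.726). Its 95% intervals against naive rats were -0.47 to 0.93 for sham, -1.15 to 0.24 for mTBI and -0.80 to 0.59 for sTBI. The sham value turned from 0.23 to -0.08 without sham 5, and the mTBI value against naive rats turned from -0.46 to 0.41 with total tRNA UMIs as the library size, a scaling that moved the median of all 65 sums from 0.23 to 1.03, so that the sum lay below that median with both.

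Chr7.trna8813-AspGTC, which carries most of the sum, was at 5425, 9059, 7998 and 13712 CPM in naive and at 6027, 5118, 5969, 6348 and 15164 CPM in sham rats. It was at 3568, 4412, 6184, 6749 and 5341 CPM after mTBI and at 7323, 4611, 4315, 9163 and 6109 CPM after sTBI. Naive 4 and sham 5 were the highest libraries, and all groups overlapped. Its log2 fold change was -0.23, -0.79 and -0.52 in sham, mTBI and sTBI against naive rats (edgeR adjusted p = 0.824, 0.289 and 0.457). The other 14 Asp-GTC rows were all positive in sham and in sTBI against naive rats, and 13 were positive in mTBI, but with miRNA totals 8 of all 15 were positive in mTBI, with spike-in totals 9 in sTBI, and with total tRNA UMIs all 15 in each. Over all 15 rows the medians were 0.47, 0.49 and 0.28, against -0.14, -0.09 and 0.12 over all 332 features. In mTBI against sham rats 12 of 15 were negative with a median of -0.33 against 0.24, while with total tRNA UMIs 7 were negative and the median was 0.02 against 0.58 over all features. The rows lay 0.57 below the median of all features with TMM and 0.56 below it with total tRNA UMIs. Between pairs of Asp-GTC rows Spearman's rho ran from -0.621 to 0.958 with a median of 0.604 (105 pairs).

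Chr12.trna2134-AspGTC was the row with the smallest p in sham against naive rats. It was at 134, 214, 184 and 148 CPM in naive and at 339, 370.4, 278, 262 and 330.2 CPM in sham rats, without overlap. The log2 fold change was 0.90 (SE 0.23, edgeR adjusted p = 0.215). Chr13.trna3816-AspGTC was at 117, 119.5, 135 and 109.8 CPM in naive and at 262, 279.7, 263, 133 and 196 CPM in sham rats. Only sham 4 lay inside the naive range, and the log2 fold change was 0.91 (SE 0.25, edgeR adjusted p = 0.215). Both rows had means between those of naive and sham rats after injury, 221 ± 35.9 and 179 ± 54.8 CPM after mTBI and 264 ± 58.8 and 174 ± 15.8 CPM after sTBI (SD, n = 5). With DESeq2, 3 Asp-GTC rows were called higher in sham and 4 in sTBI against naive rats, and total tRNA UMIs as the library size gave 3 in sham (0.904% of all features called) and 6 in mTBI (6.63%), where the median of all features was 0.42 and 1.03.

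Chr13.trna3823-AspGTC had lower means in naive and mTBI rats than in sham and sTBI rats, with overlap and without passing the edgeR test. It was at 713, 792, 407, 589 and 713 CPM in sham, 317, 405, 443, 365 and 189 CPM in mTBI, and 547, 879, 702, 361 and 434 CPM in sTBI rats. Sham 3 fell inside the mTBI range, as did sTBI 4 and sTBI 5. Naive rats ran from 131 to 564 CPM, with a mean of 324 beside 344 CPM after mTBI. Against naive rats the log2 fold change was 0.08 in mTBI, 0.99 in sham and 0.85 in sTBI (edgeR adjusted p = 0.959, 0.336 and 0.217). The log2 fold change was -0.90 (SE 0.33, edgeR adjusted p = 0.428) in mTBI against sham and 0.77 (SE 0.33, edgeR adjusted p = 0.804) in sTBI against mTBI rats, the row with the smallest p among the 64 in the latter.

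**Figure D4:**
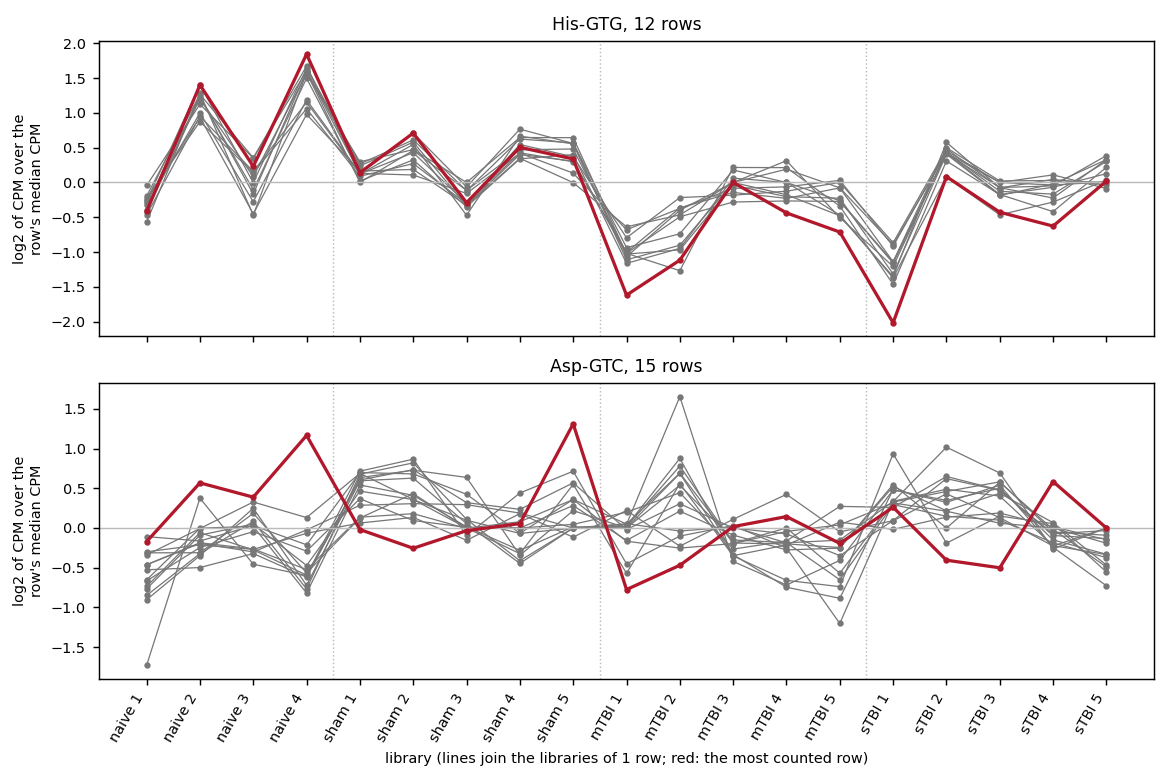
Log2 of each row's TMM-scaled CPM over its own median, by library, for the 12 His-GTG rows and the 15 Asp-GTC rows; the most counted row is in red and dotted lines part naive, sham, mTBI and sTBI rats. The His-GTG rows run together, with pairwise rho from 0.711 to 0.977, while the red Asp-GTC row departs from the rest, high in naive 4 and sham 5.

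On the TMM scale the anticodons of tRNA-Lys gave opposite pictures, Lys-CTT nearly level and Lys-TTT the most variable of the 7. As a share of all tRNA UMIs both ranged widely, Lys-CTT from 0.0395 to 0.237% and Lys-TTT from 0.0526 to 0.372%. Lys-TTT, which in human cells is also the primer for reverse transcription of HIV, was at 2263, 1263, 4509 and 1497 CPM in naive and at 3088, 1718, 2466, 1114 and 618 CPM in sham rats. It was at 1581, 6646, 735, 602 and 2672 CPM after mTBI and at 1349, 1117, 1537, 1199 and 828.6 CPM after sTBI. The highest naive and the 2 highest mTBI values came from libraries that stood apart, and the groups overlapped in all 6 comparisons. The largest difference was sTBI against mTBI, -1.02 (SE 0.56, edgeR adjusted p = 0.562), which was -0.21 without mTBI 2 and turned to 0.54 without the 4 libraries. Against naive rats the 95% intervals were -1.65 to 0.84 for sham, -1.21 to 1.29 for mTBI and -2.23 to 0.26 for sTBI.

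Lys-TTT was high in the 4 libraries with over 10 miRNA UMIs per spike-in UMI. Its median was 3590.5 CPM in these 4 (range 2263 to 6646) and 1263 CPM in the other 15 (range 602 to 3088), given as a description of groups that the counts themselves define. Chr17.trna1683-LysTTT, the most counted row, had a median of 2336 CPM in the 4 and 546 CPM in the 15. The median of each of the other sums was lower in the 4 than in the 15, for example 7654 against 10211 CPM for His-GTG and 337 against 445 CPM for Val-AAC. Only Chr10.trna10825-LysTTT, named after its values were seen, was higher in all 4 than in any of the 15, as were 15 of all 332 features. Spearman's rho of Lys-TTT with Val-AAC over the 19 libraries was -0.635, the farthest from 0 of the 21 pairs of sums. Both values of a library share its scaling factor.

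**Figure D5:**
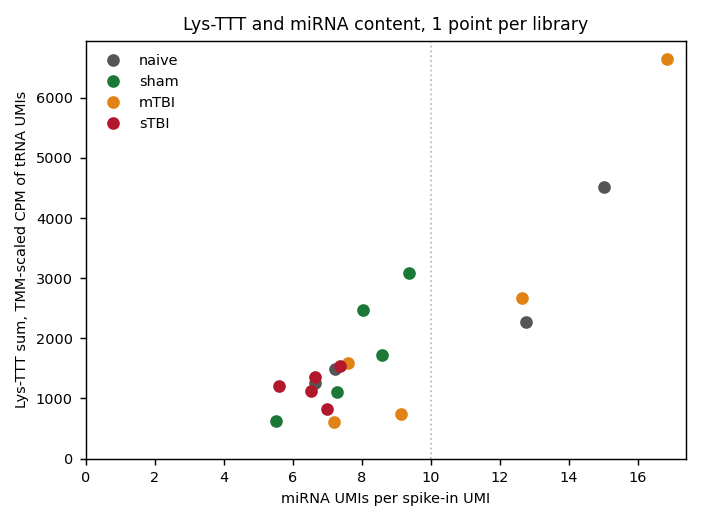
Lys-TTT sum (TMM-scaled CPM, vertical axis) and miRNA UMIs per spike-in UMI (horizontal axis) in each of the 19 libraries, coloured by group; the dotted line marks a ratio of 10. The 4 libraries right of the line lie between 2263 and 6646 CPM, and the 15 left of it between 602 and 3088 CPM.

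Chr17.trna1683-LysTTT had the second smallest p in sTBI against mTBI rats. It was at 546, 524, 864, 409.9 and 383 CPM after sTBI and at 715, 3407, 302, 262 and 1618 CPM after mTBI. The sTBI values lay within the wide mTBI range, and the log2 fold change was -1.21 (SE 0.61, edgeR adjusted p = 0.889). Chr10.trna10825-LysTTT, named after its values were seen, was at 82.2 to 125.98 CPM after sTBI and at 126.7 to 303 CPM in naive rats without overlap, with -0.94 (SE 0.33, edgeR adjusted p = 0.189).

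Lys-CTT was at 908, 879, 535 and 852 CPM in naive and at 913, 895, 867, 927 and 758 CPM in sham rats. It was at 1007, 996, 907, 1118 and 845 CPM after mTBI and at 859, 924, 755, 902 and 773 CPM after sTBI. Apart from naive 3, all libraries lay between 755 and 1118 CPM. The log2 fold changes ran from -0.21 (sTBI against mTBI) to 0.30 (mTBI against naive), and the widest 95% interval against naive rats was -0.17 to 0.76. With total tRNA UMIs as the library size, mTBI against naive rats was called at 1.18 (edgeR adjusted p = 0.0491), relative to a median of 1.03 over all 65 sums.

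Among the Lys-CTT rows, Chr2.trna2689-LysCTT had low counts and the smallest p in mTBI against sham rats. It was at 12.9, 9.86, 10.2, 7.37 and 12.2 CPM after mTBI and at 5.67, 6.03, 6.93, 6.38 and 5.61 CPM in sham rats, without overlap, with a log2 fold change of 0.78 (SE 0.25, edgeR adjusted p = 0.428). In naive rats it was at 14.2, 5.01, 10.4 and 12.9 CPM, and the value of sham against naive was -0.79 (SE 0.27, edgeR adjusted p = 0.336). The most counted row, Chr6.trna6097-LysCTT, ran from 211 to 286 CPM after mTBI and from 142 to 209 CPM in sham rats, again without overlap, with 0.39 (SE 0.19, edgeR adjusted p = 0.613). Chr10.trna12028-LysCTT had 0.34 (SE 0.20, edgeR adjusted p = 0.996) in sTBI against sham rats. In mTBI against sham rats 14 of the 15 tested Lys-CTT rows were positive, with a median of 0.38 against 0.24 over all features, but with miRNA totals 13 of the 15 were negative, with a median of -0.14 against -0.28.

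Rows at 0 in some libraries do not carry a fold change. Chr13.trna2591-LysCTT, named after its values were seen, was at 0 UMIs in all 4 naive rats, and at 0, 16, 14, 10 and 17 UMIs in sham, 15, 0, 9, 0 and 11 in mTBI and 13, 11, 0, 0 and 0 in sTBI rats. Chr17.trna820-LysCTT was at 12, 13, 15, 13 and 11 UMIs after sTBI and at 4, 6, 13, 0 and 0 UMIs in sham rats, and the 0 of sham 5 comes from a library with no tRNA count from 1 to 9. These UMI counts overlapped, but on the TMM-scaled CPM scale (3.71 to 4.05 after sTBI, 0 to 3.61 in sham rats) it was the only one of the 64 rows without overlap in sTBI against sham rats. The 4 rows that failed the filter were 1 Lys-CTT, 2 Val-AAC and 1 Val-TAC row.

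tRNA-Val had small mean differences between groups on the TMM scale for 2 of its 3 anticodons, though single rats spread widely. Val-TAC, the least counted, had higher means in all operated groups than in naive rats under every scaling tried. It did not pass the main edgeR test, though it passed under some alternatives given below. Val-TAC was at 74.1, 70.8, 36.4 and 85.9 CPM in naive and at 114, 94.0, 119.7, 112 and 94.1 CPM in sham rats, without overlap. After mTBI it was at 180.2, 96.2, 90.5, 89.9 and 84.4 CPM, and after sTBI at 119, 112, 139, 122 and 65.6 CPM. Naive 4 at 85.9 CPM exceeded 1 mTBI and 1 sTBI rat, and naive 3 was the lowest library of all 19. The mean was 66.8 ± 21.3 CPM (SD, n = 4) in naive, 107 ± 12.0 (SD, n = 5) in sham, 108 ± 40.5 (SD, n = 5) in mTBI and 111 ± 27.6 (SD, n = 5) in sTBI rats.

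The log2 fold change of Val-TAC against naive rats was 0.68 in sham (SE 0.26, edgeR adjusted p = 0.531), 0.70 in mTBI (SE 0.26, edgeR adjusted p = 0.301) and 0.74 in sTBI (SE 0.26, edgeR adjusted p = 0.159). It was positive under each of the 11 alternatives and with each library left out, in all 3 comparisons, which share the 4 naive rats. sTBI against naive passed in DESeq2 (0.80, adjusted p = 0.0299) and in edgeR without naive 1 (0.91, adjusted p = 0.0425), and stood at 0.54 (edgeR adjusted p = 0.751) without naive 3. mTBI against naive passed with total tRNA UMIs as the library size (1.74, edgeR adjusted p = 0.0116), where the median of all 65 sums was 1.03 and 29.2% of them were called. Between operated groups the log2 fold changes were 0.02 to 0.06, with 95% intervals within -0.50 to 0.58. The top row, Chr1.trna6859-ValTAC, was at 43.0, 42.9, 24.2 and 55.6 CPM in naive, and its means were 57.7 ± 9.87 in sham, 66.7 ± 27.4 in mTBI and 64.4 ± 18.8 CPM in sTBI rats (SD, n = 5).

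Val-CAC was at 1049, 1288, 866 and 1061 CPM in naive, 947, 922, 919.7, 1094 and 1332 CPM in sham, 1188, 1335, 1113, 1197 and 839 CPM in mTBI, and 1176, 842, 823, 1318 and 789.9 CPM in sTBI rats. Val-AAC was at 464, 704, 245 and 445 CPM in naive, 384, 471, 349, 473 and 499 CPM in sham, 369.95, 429, 541, 620.5 and 240.5 CPM in mTBI, and 372, 492, 422, 413 and 378 CPM in sTBI rats. The groups overlapped throughout for both. Log2 fold changes over the 6 comparisons ran from -0.20 to 0.12 for Val-CAC and from -0.16 to 0.02 for Val-AAC, and their 95% intervals together reached from -0.75 to 0.60. Chr17.trna1600-ValCAC, the top Val-CAC row, ran from 366 to 908 CPM and Chr2.trna9183-ValAAC, the top Val-AAC row, from 139.6 to 501 CPM, both lowest and highest within the mTBI rats.

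Chr10.trna1307-ValCAC, unlike its sum, had groups that did not overlap. It was at 116, 79.5, 117 and 99.7 CPM in naive and at 66.6, 60.8, 69.6, 71.2 and 77.3 CPM in sham rats, without overlap. After mTBI it was at 100.2, 119, 79.9, 99.1 and 95.6 CPM, again above all sham rats. The log2 fold change was -0.58 (SE 0.21, edgeR adjusted p = 0.336) in sham against naive, 0.52 (SE 0.20, edgeR adjusted p = 0.428) in mTBI against sham and -0.35 (SE 0.20, edgeR adjusted p = 0.893) in sTBI against mTBI rats.

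The remaining rows without overlap, named after their values were seen, belonged to Asp and His. In sham against naive rats these were Chr13.trna3804-AspGTC (log2 fold change 0.45), Chr13_random.trna23-AspGTC (0.42) and Chr13_random.trna3-AspGTC (0.46). In sTBI against naive rats they were Chr13.trna3816-AspGTC (0.53) and Chr13_random.trna23-AspGTC (0.62). In mTBI against sham rats Chr5.trna10653-HisGTG was lower throughout (-0.87). The edgeR adjusted p of these 6 values ran from 0.191 to 0.449.

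As a share of all tRNA UMIs of a library, tRNA-Asp had its lowest mean in naive rats, an order that did not hold relative to spike-in UMIs. The Asp share was 0.680, 0.755, 0.676 and 0.791% in naive rats and 1.06, 0.988, 1.11, 1.22 and 0.865% after sTBI, without overlap. The means were 0.726 ± 0.0570% (SD, n = 4) and 1.05 ± 0.132% (SD, n = 5), and the two-sided exact permutation p was 0.0159, the smallest that 4 against 5 rats can give (adjusted p = 0.381 over 24 tests). Sham rats had 0.748, 0.998, 0.988, 0.985 and 1.83% (exact permutation p = 0.0476, adjusted p = 0.466, against naive). After mTBI the share was 1.44, 0.535, 0.777, 1.24 and 0.819%. A rise on this scale was not particular to tRNA-Asp. With total tRNA UMIs as the library size, the median log2 fold change of all 332 features was also positive. It was 0.42 in sham, 1.03 in mTBI and 0.64 in sTBI against naive rats. Relative to spike-in UMIs in place of tRNA UMIs, the difference between sTBI and naive rats was negative. All tRNA UMIs together were at 9.21 to 23.0 per spike-in UMI in naive, 6.83 to 12.9 in sham, 2.37 to 23.7 in mTBI and 5.11 to 7.55 in sTBI rats, so naive and sTBI rats did not overlap in total tRNA either. The part of this total in the comparisons with naive rats was not tested.

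The other isotypes overlapped between groups as shares. tRNA-His took 1.17 ± 0.501% (SD, n = 4) of tRNA UMIs in naive, 1.29 ± 0.358% in sham, 0.879 ± 0.284% in mTBI and 1.03 ± 0.444% in sTBI rats (SD, n = 5). tRNA-Lys took 0.242 ± 0.123%, 0.248 ± 0.0866%, 0.381 ± 0.165% and 0.242 ± 0.0820%, and tRNA-Val 0.118 ± 0.0374%, 0.151 ± 0.0376%, 0.231 ± 0.132% and 0.174 ± 0.0361% in the same order. The exact permutation p of the 24 tests gave no adjusted value below 0.381. For 5 against 5 rats the smallest exact permutation p is 0.00794.

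Markers of other cell types, miRNAs measured in the same libraries, are given beside these values. The summed CPM of 3 skeletal muscle miRNAs was 347 to 1355 in naive, 2331 to 10037 in sham, 2615 to 6297 in mTBI and 1791 to 2322 in sTBI rats, so naive rats lay below all others. The 5 erythrocyte miRNAs overlapped between groups, with medians of 261614 (naive), 273026 (sham), 340239 (mTBI) and 311604 CPM (sTBI). All 17 markers of the 5 lists were in the table, and none was at 0 in any library. The 3 platelet and myeloid miRNAs had medians from 51006 CPM in naive to 69763 CPM in mTBI rats, the 3 leukocyte miRNAs from 39070.5 to 46929 CPM, and the 3 liver miRNAs from 37562 to 74839 CPM. Their part in the tRNA results was not tested, other than by the hemolysis covariate above.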

How the data were processed

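Small RNA was sequenced from the plasma of 19 rats, 4 naive, 5 sham, 5 mTBI and 5 sTBI, grouped by their labels. The authors quantified reads with the GeneGlobe portal, and the deposited tables give, for each feature, a count of reads and a count of UMIs, not normalized. Per the submitters' notes and the study's methods, cutadapt trimmed the reads and Bowtie aligned them to Rnor_6.0. The read-summary table gave total reads, and the table of other RNA classes was not used. UMI counts of the whole tRNA table (386 rows), and their sums by anticodon, were fitted with edgeR 4.0.16 in R 4.3.3 (TMM factors, filterByExpr by group with a minimum count of 10, robust quasi-likelihood fit of all 19 libraries, 15 residual degrees of freedom, limma 3.58.1). P-values were Benjamini-Hochberg adjusted over the 332 rows or 65 sums, with a threshold of 0.05, and the 95% intervals used these 15 degrees of freedom. Because the TMM factors of rows and of sums were computed separately, row values do not add up exactly to the sums.

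Shares were compared by exact permutation tests in scipy 1.17.1 under Python 3.11.15 (numpy 2.4.6, pandas 2.3.3, figures with matplotlib 3.10.9). Each p-value sets a difference between groups against the spread between rats. Alternatives were read counts, no low-count filter, RLE factors, library sizes from tRNA, miRNA or spike-in UMIs, DESeq2 1.42.0, fits of 2 groups, a replicate block, a hemolysis covariate (miR-451-5p over miR-23a-3p), and each library left out. Leaving out 4 libraries together was chosen after seeing the data. The edgeR procedure was tested on simulated data. The members, marker lists and tests were chosen with earlier results of these data known. Rows named are the most counted row of each anticodon and, where none was called, the 3 rows with the smallest p in each comparison. Every anticodon sum is given.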

Additional observations from a re-analysis of the deposited data

Results flagged for a closer look

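Of 116 groups of 4 or 5 libraries examined, 7 held a library farther from its group than Dixon's limit at 95%, and chance gives about 1 in 20 such groups. Sham 5 had an Asp-GTC sum of 21517 CPM where the other sham rats lay between 8639 and 12000.0 CPM, Chr7.trna8813-AspGTC at 15164 CPM against 5118 to 6348 CPM, and an Asp share of 1.83% of tRNA UMIs against 0.748 to 0.998%. Sham 3 had a His-GTG sum of 9087 CPM, below the 13969.9 to 15475 CPM of the other sham rats. Naive 3 had a Lys-CTT sum of 535 CPM, below the 852 to 908 CPM of the other naive rats. mTBI 1 had a Val-TAC sum of 180.2 CPM against 84.4 to 96.2 CPM, and Chr1.trna6859-ValTAC at 114 CPM against 46.8 to 63.6 CPM. mTBI 1 also had the fewest tRNA UMIs of all libraries, 1386885.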

How the results depend on the processing

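Counts of called rows and sums were 0 in edgeR as reported, and in mTBI against sham, sTBI against sham and sTBI against mTBI they were 0 under each of the 11 alternatives and with each library left out. Total tRNA UMIs as the library size called 3 rows in sham (3 of all features) and 9 rows and 2 sums in mTBI against naive rats (22 of all features, 19 of all sums), higher on a scale that moved the median of all features to 0.42 and 1.03. DESeq2 called 3 rows in sham (higher), 10 rows and 1 sum in mTBI (lower), and 8 rows (5 higher, 3 lower) and 1 sum in sTBI. Total miRNA UMIs called 7 rows and 1 sum, and the hemolysis covariate 3 rows, lower in mTBI against naive rats. Leaving out the 4 libraries that stood apart, an alternative chosen after seeing the data, called 12 rows and 1 sum in mTBI and 11 rows and 1 sum in sTBI against naive rats, all lower. With each library left out in turn, 0 to 8 rows and 0 to 1 sum were called in mTBI against naive rats. In sTBI against naive rats 0 to 1 sum was called. The 8 rows came without naive 1, where 3.58% of all features were called. The sum in mTBI was called without naive 1 or without naive 3 (1.54% of all sums in each). That in sTBI was called without naive 1 (3.08%). Leaving out a rat of a group not compared gave 1 row in sham (without mTBI 1) and 3 rows in mTBI (without sTBI 1). The share of all features called in these 2 fits is not given. Reversed signs included Asp-GTC in mTBI against naive rats with total tRNA UMIs (0.41, still below the median of all sums there, 1.03) and Lys-TTT in sTBI against mTBI rats without the 4 libraries (0.54). In percent of miRNA UMIs, mTBI minus sham was -0.0273 for Val and mTBI minus naive -0.407 for Asp. In percent of spike-in UMIs, the differences from naive rats were -0.281 (sham, Val), -0.464 (sTBI, Val), -3.24 (mTBI, Asp) and -3.43 (sTBI, Asp). In all, 33 of 60 log2 fold changes changed sign under some alternative and 17 with some library left out, as did 18 and 8 of 24 share differences. These included larger values. Chr17.trna1683-LysTTT in sTBI against mTBI rats (-1.21) reached 0.38, and Lys-TTT in sTBI against naive rats (-0.98) reached 0.14, each with 1 alternative of opposite sign. Read counts, RLE factors, no low-count filter and fits of 2 groups gave 0 calls. The replicate block also gave 0 called rows and sums; rats with the same number correlated from -0.396 to 0.517 in their deviations, and the numbers were not taken as pairs. The cause of these differences was not tested. The 4 naive rats limit all comparisons with that group, and rows under about 10 UMIs cannot be compared between libraries.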
